A study of Mus musculus with 12 samples.

Results

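Lens fibre genes other than the crystallins were followed in whole retinas after optic nerve crush (ONC). The group holds 9 genes chosen by symbol, of 25655 genes in the deposited tables. They are the membrane genes Mip, Lim2 and Gja3, the cytoskeletal genes Bfsp1 and Bfsp2, Lgsn and Dnase2b, and the transcription factor genes Hsf4 and Foxe3, and all 9 were found. C57BL/6J mice (C57BL/6 in the labels), 8 to 10 weeks old, had the left optic nerve crushed and received an intravitreal injection of PBS as the control, of fluvastatin, of MBV, or of MBV and fluvastatin together. Fluvastatin is a statin, an inhibitor of HMG-CoA reductase, and MBV are matrix-bound nanovesicles from porcine urinary bladder. Each group has 3 samples, taken 2 days after the injury. All groups share the crush and an injection through the wall of the eye, and a retina without injury or without injection was not analysed here. The study calls the samples biological replicates. Whether each holds the retina of a single animal is not stated in the sources used here, and the p-values measure the spread between these samples only. The counts analysed come from 9 libraries, 3 from each of the PBS, fluvastatin and MBV groups. The combined treatment was not analysed here, because its 6 columns of counts carry no library name.

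The lens grows by adding fibre cells, which elongate from the epithelium at its surface, fill with crystallins, and then lose their nuclei and other organelles. Their membranes carry the water channel MIP, the tetraspan protein LIM2 and gap junction connexins such as GJA3, and their cytoskeleton is built on beaded filaments of BFSP1 and BFSP2. LGSN is a lens protein related to glutamine synthetase, DNASE2B is the enzyme that degrades the DNA of the fibre nuclei, HSF4 is the heat shock factor of the lens, and FOXE3 is a forkhead factor of the lens epithelium. The retina lies behind the lens and the vitreous, and in bulk tissue a larger number of cells of a type and more RNA per cell cannot be told apart.

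The upstream windows of Mip, Bfsp1 and Lim2 are shown because these genes were among the 4 called higher with MBV below, and each holds a match to the MAF half-site, the letters of a lens transcription factor family, before the annotated start of the gene. The sequences are RefSeq promoter windows from its GRCm38.p6 table, 5′ to 3′ along the gene, and each was found once in GRCm39, the build of the deposited tables. Capitals mark matches to the MAF half-site (TGCTGA or TCAGCA) and, in Lim2, also to the SOX site (ACAAAG or CTTTGT). The Mip window is chr10:128061429-128061678 on the plus strand, the Bfsp1 window is chr2:143705094-143705343 on the minus strand, and Lim2 lies on the plus strand. The Lim2 sequence is the first 219 bases (chr7:43079273-43079491) of its 250-base window, cut where the gene starts in GENCODE, whereas the other windows are whole.
Mip: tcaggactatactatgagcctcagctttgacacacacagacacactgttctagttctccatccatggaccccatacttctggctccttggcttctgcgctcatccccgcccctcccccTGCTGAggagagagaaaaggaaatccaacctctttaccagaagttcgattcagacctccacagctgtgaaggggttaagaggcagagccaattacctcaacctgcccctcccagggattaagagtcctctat
Bfsp1: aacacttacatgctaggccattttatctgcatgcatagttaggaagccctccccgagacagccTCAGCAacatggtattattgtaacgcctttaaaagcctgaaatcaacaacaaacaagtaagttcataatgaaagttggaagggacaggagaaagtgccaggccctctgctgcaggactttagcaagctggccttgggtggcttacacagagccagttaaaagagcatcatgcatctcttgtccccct
Lim2: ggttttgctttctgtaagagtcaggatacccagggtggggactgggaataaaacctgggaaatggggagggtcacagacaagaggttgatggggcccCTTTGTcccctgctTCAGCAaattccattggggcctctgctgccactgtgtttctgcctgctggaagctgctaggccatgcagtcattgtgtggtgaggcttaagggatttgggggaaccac

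RefSeq windows of 250 bases were found for 8 of the 9 genes, with 2 for Gja3, and not for Hsf4. A MAF half-site was present in 4 of these 9 windows, those of Mip, Lim2, Bfsp1 and Lgsn, and in 16.1% of all 32851 windows of the same length. In Lgsn the match runs across the annotated start of the gene, so that window is not shown. A SOX site was present in 2 of the 9 windows (Lim2 and Lgsn) and in 16.5% of all windows. The core of a heat shock element (GAANNTTC) was present in 1 window, that of Dnase2b, and in 6.69% of all windows. These matches describe the letters of the windows only. For Bfsp2 the RefSeq start lies 31243 bases inside the gene as drawn in the deposited tables, and for the 2 windows of Gja3 it lies 69 and 376 bases inside. The Bfsp2 window and the second Gja3 window thus lie within the gene, so the 9 windows are not all upstream of it.

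The libraries held 21349516 to 30992040 counts on genes. A count of 3 or fewer was taken as the limit of detection, which corresponds to 0.0968 to 0.141 CPM (counts per 1000000 counts of the library) and covers counting error only. The label of the tissue was met by its markers, as 6 rod and cone genes summed to 26316 to 41017 CPM in every library. In the labels, PBS and fluvastatin carry the same library numbers, and so do the combined treatment and MBV, so there is more than 1 set. The labels do not name the sets. From the order and naming of the samples, PBS and the combined treatment were taken as 1 set of 6 and fluvastatin and MBV as another. A difference of fluvastatin or MBV from PBS therefore cannot be told apart from a difference between sets.

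In the PBS retina, the lens fibre genes ranged from undetected to a mean of 1.47 CPM when set per kilobase of exon. Hsf4 was the highest with 1.47 ± 0.103 CPM per kilobase (SD, n = 3), followed by Bfsp2 with 0.666 ± 0.0833, and neither overlapped with its neighbour in this order. Bfsp1 (0.257 ± 0.123), Mip (0.256 ± 0.0391) and Lgsn (0.177 ± 0.0513 CPM per kilobase) followed, and each overlapped with the next. Lim2 (0.0240 ± 0.0415) and Gja3 (0.0114 ± 0.0101 CPM per kilobase) overlapped as well, and rested on 2 and 5 counts over the 3 libraries. Dnase2b and Foxe3 had 0 counts in the 3 PBS and in the 3 fluvastatin libraries. In MBV replicate 1 the order was different, with Mip at 6.54, Lgsn at 5.66, Lim2 at 3.88, Bfsp1 at 2.78 and Bfsp2 at 2.04 CPM per kilobase, all above Hsf4 at 1.01.

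**Figure D1:**
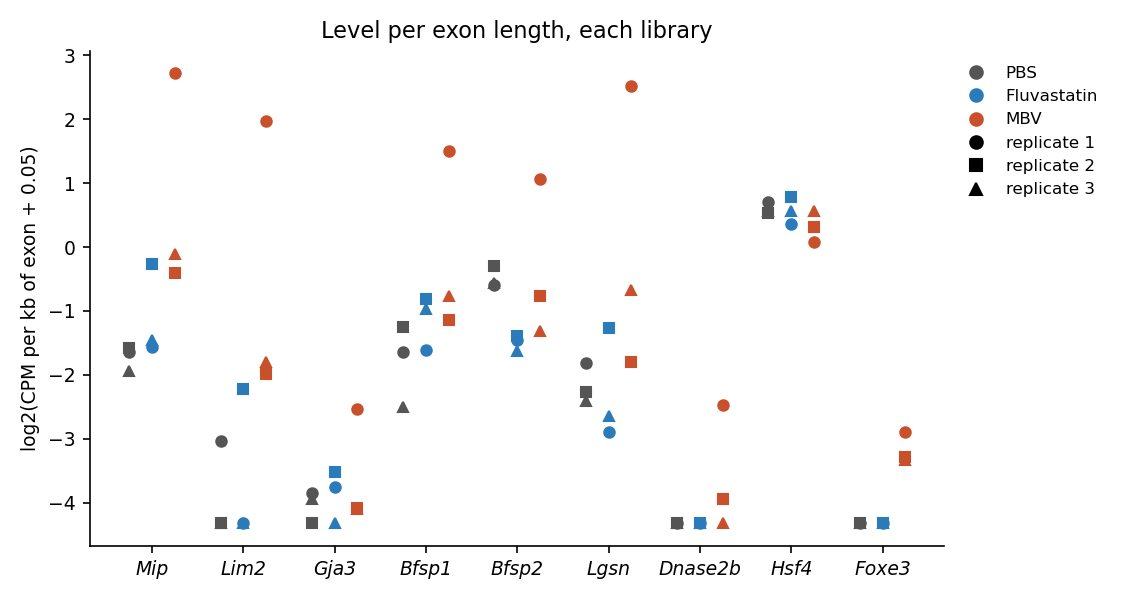
Level of the 9 genes per kilobase of exon, on the vertical axis as log2(CPM per kilobase + 0.05), with a point for each library, the color giving the group and the shape the replicate. MBV replicate 1 (orange circles) lies above every other library for 8 of the 9 genes, and Hsf4 is at a similar level in all libraries.

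Among the membrane genes, Mip (chromosome 10, 128061707 to 128067681, in GRCm39 as for all positions of genes) was covered by 18, 18 and 12 counts under PBS, by 15, 45 and 16 under fluvastatin and by 385, 33 and 44 under MBV. In CPM these were 0.585, 0.614 and 0.456 with PBS, 0.618, 1.68 and 0.678 with fluvastatin and 14.1, 1.51 and 1.88 with MBV. All MBV libraries lay above all PBS libraries, MBV replicate 1 stood 7.48-fold above the highest of the other 8 libraries, and fluvastatin replicate 2 lay between MBV replicates 2 and 3. Lim2 (chromosome 7, 43079512 to 43085420) had 2, 0 and 0 counts with PBS, 0, 4 and 0 with fluvastatin and 96, 4 and 5 with MBV. Outside MBV replicate 1 it was therefore near the limit of detection in every library. From the summed counts and library sizes, Lim2 was 63.5-fold higher with MBV than with PBS (exact 95% interval of the counting error 17.1 to 531). Of its 105 counts with MBV, 96 were in replicate 1. The ratio therefore describes mainly this library, and the interval leaves out the spread between libraries. Gm52993 covers 899 of the 904 exon bases of Lim2 on the same strand and had at most 1 count in a library, so the counts of Lim2 depend on how the reads were assigned between these genes. Gja3 (chromosome 14, 57271917 to 57295557) had 3, 0 and 2 counts with PBS, 3, 5 and 0 with fluvastatin and 17, 1 and 1 with MBV. The groups overlapped, and 17 of its 32 counts were in MBV replicate 1.

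Of the beaded filament genes, Bfsp1 (chromosome 2, 143668448 to 143705093) had 20, 26 and 8 counts with PBS, 16, 33 and 26 with fluvastatin and 182, 21 and 30 with MBV. The MBV libraries, with 6.65, 0.959 and 1.28 CPM, lay above the PBS libraries, with 0.650, 0.887 and 0.304 CPM, but MBV replicate 2 exceeded the highest PBS library by less than the spread within PBS. Its partner Bfsp2 (chromosome 9, 103302123 to 103357619) followed another pattern. It had 32, 38 and 28 counts with PBS, 13, 15 and 11 with fluvastatin and 95, 20 and 14 with MBV. With fluvastatin its 3 libraries (0.536, 0.561 and 0.466 CPM) lay below all PBS libraries (1.04, 1.30 and 1.06 CPM). With MBV, replicate 1 at 3.47 CPM lay above the PBS libraries, whereas replicates 2 and 3, at 0.913 and 0.599 CPM, lay below them. Bfsp2 shares 220 exon bases with the RNA gene 5830418P13Rik on the other strand, and the strand setting of the counting is not given in the sources used here.

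Lgsn (chromosome 1, 31215482 to 31243806) had 14, 9 and 7 counts with PBS, 4, 19 and 5 with fluvastatin and 300, 10 and 26 with MBV. In CPM these were 0.455, 0.307 and 0.266 with PBS, 0.165, 0.710 and 0.212 with fluvastatin and 10.96, 0.457 and 1.11 with MBV. MBV replicate 2 was level with the highest PBS library, MBV replicate 3 was above it, and MBV replicate 1 stood 9.86-fold above the highest of the other 8 libraries. Lgsn shares 280 exon bases with 4931428L18Rik on the other strand, which had 0 to 2 counts in a library. Dnase2b (chromosome 3, 146286740 to 146321351) had 11, 1 and 0 counts with MBV and no count in the other 6 libraries. Set against 3 counts in each PBS library, its mean with MBV was at least 1.43-fold higher. This bound rests on MBV replicate 1, as MBV replicates 2 and 3 were under the limit of detection.

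The transcription factor genes were not high in MBV replicate 1 in the same way. Hsf4 (chromosome 8, 105996433 to 106002477) had 122, 102 and 94 counts with PBS, 75, 111 and 84 with fluvastatin and 69, 65 and 83 with MBV. The level of Hsf4 was 3.96, 3.48 and 3.57 CPM with PBS, 3.09, 4.15 and 3.56 with fluvastatin and 2.52, 2.97 and 3.55 with MBV, so that the groups overlapped and MBV replicate 1 held the lowest value of all 9 libraries. Hsf4 shares 61 exon bases with Tradd on the other strand, which had 34 to 63 counts. Foxe3 (chromosome 4, 114782344 to 114783210), a gene of a single exon, had 2, 1 and 1 counts with MBV and 0 elsewhere, at or under the limit of detection in every library.

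**Figure D2:**
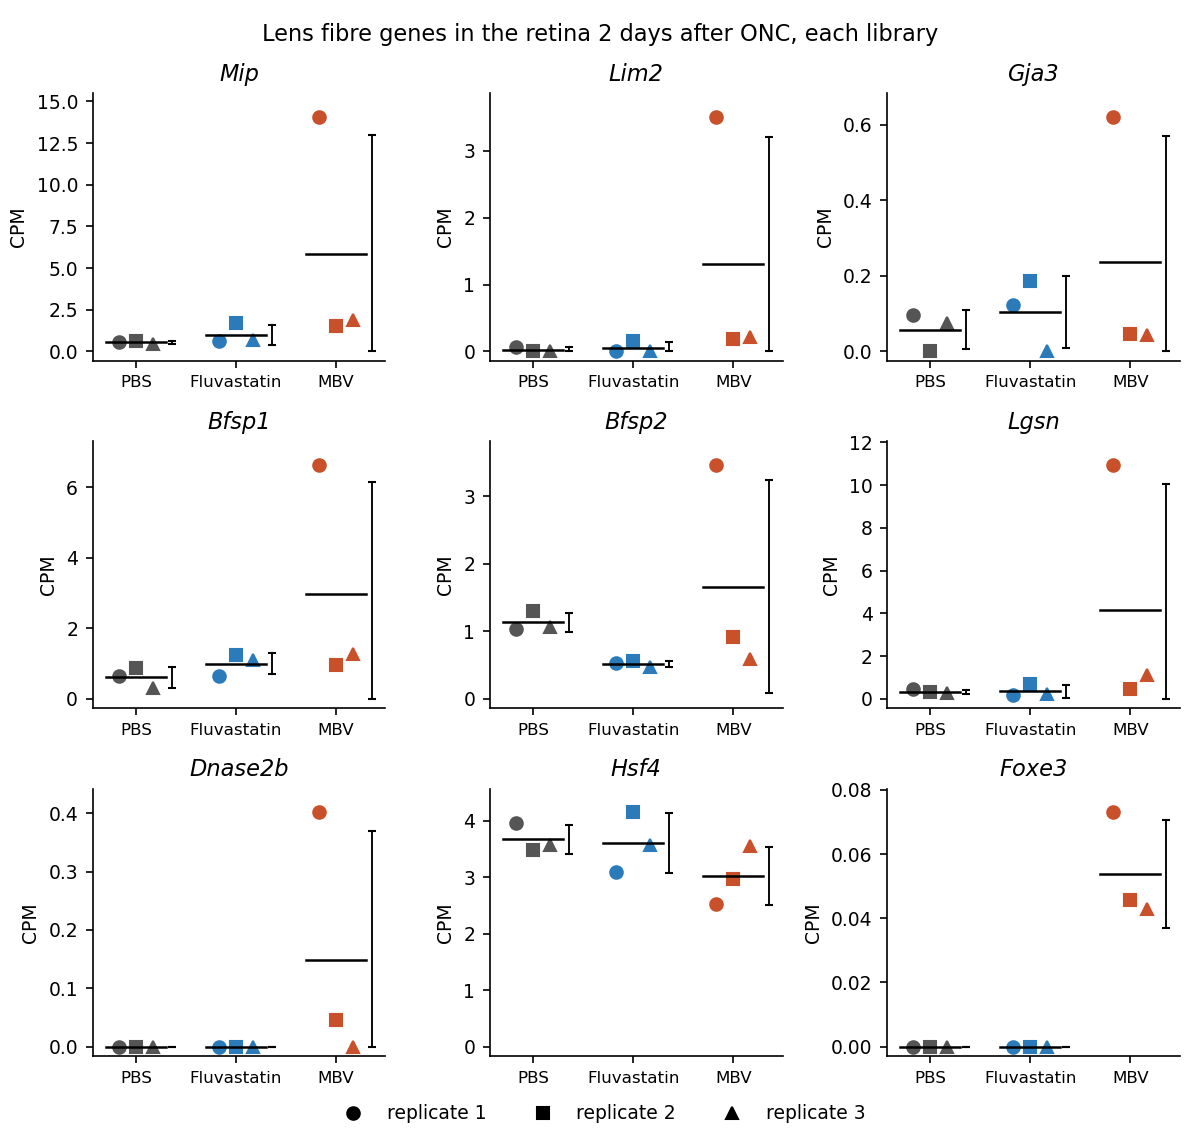
CPM of each lens fibre gene in each library, by group, with the bar at the mean and the whisker at ± SD (n = 3, drawn down to 0 where the SD exceeds the mean), and the shape giving the replicate. In 8 of the 9 panels MBV replicate 1 holds the highest value, from 0.0731 CPM for Foxe3 to 14.1 CPM for Mip, and in the panel of Hsf4 it holds the lowest.

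MBV replicate 1 stood apart from all other libraries across these genes. The 9 genes together had 1157 counts in this library and 126 to 232 in each of the other 8. Without Hsf4 the sums were 1088 counts and 51 to 121. This library held 11.4% of all counts on genes, but 86.5% of the counts of Lim2 (exact 95% interval 78.7 to 92.2), 76.1% of those of Lgsn (71.6 to 80.3), 65.7% of those of Mip (61.7 to 69.5), 50.3% of those of Bfsp1 (45.0 to 55.5) and 35.7% of those of Bfsp2 (30.0 to 41.8). For Hsf4 the share was 8.57% (6.73 to 10.7). These intervals cover counting error only and leave out the spread between libraries, and the library was singled out by its own values. After these values were seen, all 19115 genes with a count were ranked by the difference, on the log2(CPM + 0.5) scale, between MBV replicate 1 and the highest of the other 8 libraries. The first 19 places were taken by 5 of the lens fibre genes, 13 crystallins and Lctl, a lactase-like gene of the lens. Lgsn was at rank 4 with a difference of 2.83, Mip at 5 with 2.61, Lim2 at 6 with 2.49, Bfsp1 at 9 with 2.00 and Bfsp2 at 16 with 1.14. Dnase2b and Gja3 were at ranks 21 and 22, Foxe3 at 673 and Hsf4 at 17683.

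The comparison of MBV with PBS asks what the vesicles alone did to the injured retina. Because the genes were chosen with results of these libraries known, their calls are given as a description and support no statement about the group. A gene was called when its FDR (Benjamini-Hochberg) in edgeR's quasi-likelihood test was below 0.05 and its level differed 2-fold or more. Mip, Lim2, Bfsp1 and Lgsn were called higher (4 of 9 tested) and 0 were called lower, while 0.953% of the 18897 genes tested were called higher and 1.95% in either direction. DESeq2 called the same 4 genes. The log2 fold change was 3.40 (standard error 0.863) for Mip, 5.60 (1.57) for Lim2, 2.27 (0.730) for Bfsp1 and 3.60 (1.08) for Lgsn. Standard errors given for edgeR were derived from its test, as the absolute log2 fold change over the square root of the F statistic. Gja3 (2.03, standard error 1.17), Bfsp2 (0.57, 0.555) and Hsf4 (-0.30, 0.168) were not called. Dnase2b and Foxe3 were not called either, and had 0 counts in every PBS library. The median log2 fold change of the 9 genes was 3.40, or 2.15 with Dnase2b at its bound and Foxe3 left out, and that of all genes tested was 0.01. In 5 of the 9 genes (Mip, Lim2, Bfsp1, Lgsn and Foxe3) every MBV library lay above every PBS library, as did 20.3% of all genes tested. For Lgsn the lowest MBV library was level with the highest PBS library (0.457 and 0.455 CPM). Foxe3 rested on 2, 1 and 1 counts, at or under the limit of detection.

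Without MBV replicate 1, only Mip of the 9 genes was called higher with MBV (log2 fold change 1.60, standard error 0.300), and 0.687% of all genes tested were. The log2 fold change was then 2.86 (standard error 1.10) for Lim2, 1.17 (0.501) for Lgsn and 0.84 (0.446) for Bfsp1. Gja3 and Bfsp2 changed sign, to -0.37 (1.32) and -0.60 (0.328), and the median of the 9 genes was 1.17. Leaving out any of the 3 PBS replicates left 0 of the 9 genes called in edgeR, with 4 at an unadjusted p under 0.05 each time, and without MBV replicate 3 it called 5. Without a PBS replicate, the log2 fold change was 3.28 to 3.48 for Mip, 3.45 to 3.86 for Lgsn, 1.96 to 2.62 for Bfsp1 and 5.08 to 8.11 for Lim2. The value of 8.11 for Lim2 was reached without PBS replicate 1, the only PBS library with a count of this gene.

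**Figure D3:**
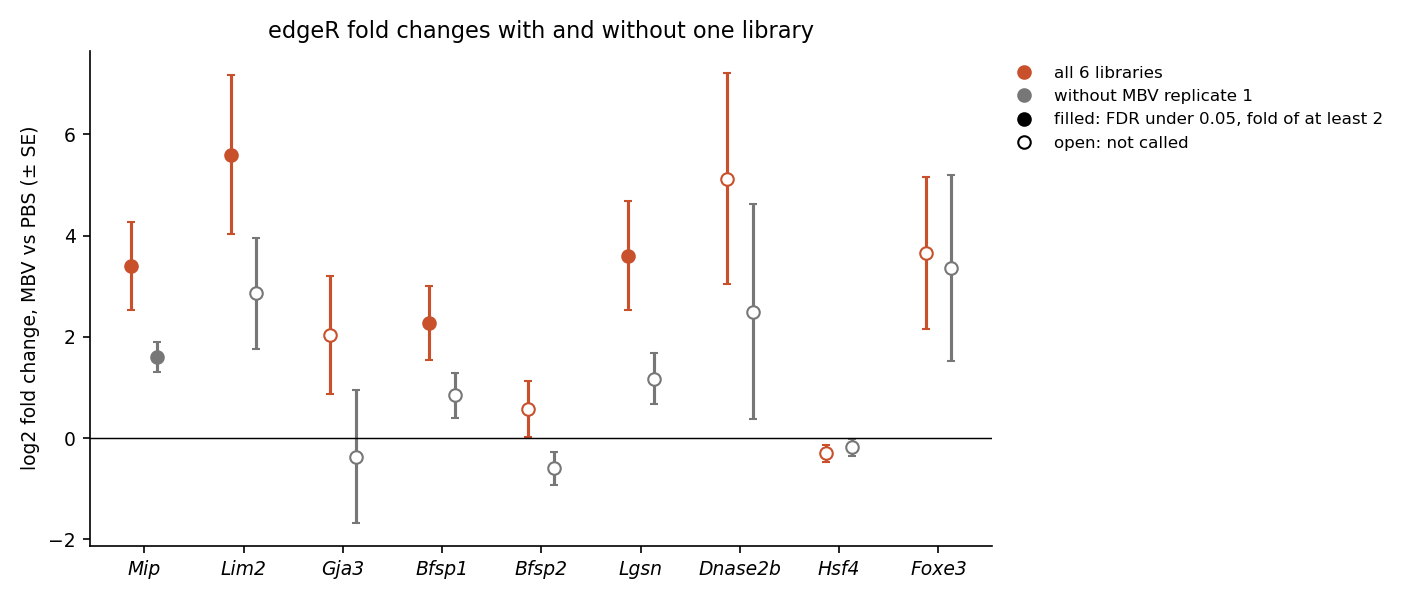
Log2 fold change of each gene with MBV compared to PBS from edgeR (vertical axis, ± the standard error derived from its F statistic). All 6 libraries are in orange and the fit without MBV replicate 1 is in grey, filled where the gene was called and open where not. Mip is filled in both, at 3.40 and 1.60, and Lim2, Bfsp1 and Lgsn are filled only with all 6 libraries.

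Fluvastatin and PBS were compared for the effect of the statin alone. Here 7 of the 9 genes could be tested, since Dnase2b and Foxe3 had no count, and 1 was called, Bfsp2, which was lower (log2 fold change -1.11, standard error 0.276). Of all 18818 genes tested, 0.802% were called lower and 0.367% higher. The call of Bfsp2 depended on the fit. With the same fold change, DESeq2 did not call it, with 1 gene at an unadjusted p under 0.05. The standard error of DESeq2, which is its own estimate and not derived from an F statistic, was 0.446. Nor did edgeR call it in a fit of all 9 libraries (standard error 0.568) or without fluvastatin replicate 3, PBS replicate 1 or PBS replicate 2. The other 6 genes were not called, among them Mip (0.85, standard error 0.417), Bfsp1 (0.69, 0.396) and Hsf4 (-0.03, 0.154). The median log2 fold change of the 7 genes was 0.69 and that of all genes tested was -0.01. Fluvastatin replicate 2 had the highest value of its group for all 7 of these genes. Every fluvastatin library lay above every PBS library for Mip, as for 17.3% of all genes, and below for Bfsp2, as for 19.3% of all genes.

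MBV and fluvastatin were taken to lie in the same set of library numbers, which the labels do not state. In this comparison edgeR called 0 of the 9 genes, with 6 at an unadjusted p under 0.05, and DESeq2 also called 0, while 0.0107% of the 18721 genes tested were called higher by edgeR. The log2 fold change of MBV compared to fluvastatin was 2.55 (standard error 0.827) for Mip, 4.53 (1.42) for Lim2, 3.50 (1.10) for Lgsn, 1.58 (0.663) for Bfsp1 and 1.69 (0.606) for Bfsp2. Without MBV replicate 1 these were 0.76 (0.448), 1.81 (1.17), 1.08 (0.677), 0.17 (0.368) and 0.53 (0.397), and the median over the 9 genes went from 2.55 to 0.76. Every MBV library lay above every fluvastatin library for 3 of the 9 genes, Lim2, Bfsp2 and Foxe3, as for 8.53% of all genes, and below for 0 of them, as for 7.88% of all genes. This comparison shares the MBV libraries with the comparison to PBS, so its values are not separate evidence.

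The crystallins, which fill the fibre cells, were compared with the fibre genes library by library. Of 8 alpha and beta crystallins, 7 were called higher with MBV compared to PBS, among them Cryba1 (log2 fold change 5.63) and Cryaa (5.38), and the same 7 were called without MBV replicate 1. Of 8 gamma crystallins, 7 were called higher, and 5 without this replicate. The lens fibre genes went from 4 to 1 under the same change. In MBV replicates 2 and 3 these 4 genes had 4 to 44 counts, Cryba4 had 42 and 50 and Cryaa had 770 and 628. The part of count depth in this difference was not tested. Several gamma crystallins were spread over the MBV libraries like Mip, Lim2 and Lgsn. Crygb had 782, 31 and 82 counts, Crygf had 212, 4 and 10 and Cryga had 70, 1 and 10 in MBV replicates 1, 2 and 3, and Crygf, Cryge and Crygb held the first 3 of the ranks given above. Cryaa was at rank 24. Cryaa, the alpha A crystallin, had 1507, 770 and 628 counts with MBV, against 1 to 70 with PBS. Mip made up 20.3% of the summed counts of Mip and Cryaa in MBV replicate 1 (exact 95% interval 18.6 to 22.2), 4.11% in replicate 2 (2.85 to 5.72) and 6.55% in replicate 3 (4.80 to 8.69). Among the other libraries, the share was 18.3% in fluvastatin replicate 2 (13.7 to 23.7) and 20.5% in PBS replicate 1 (12.6 to 30.4), and 51.7 to 92.3% in the remaining 4, which had 1 to 14 counts of Cryaa. These intervals cover counting error within a library only, so the shares describe single libraries and were not tested between groups.

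**Figure D4:**
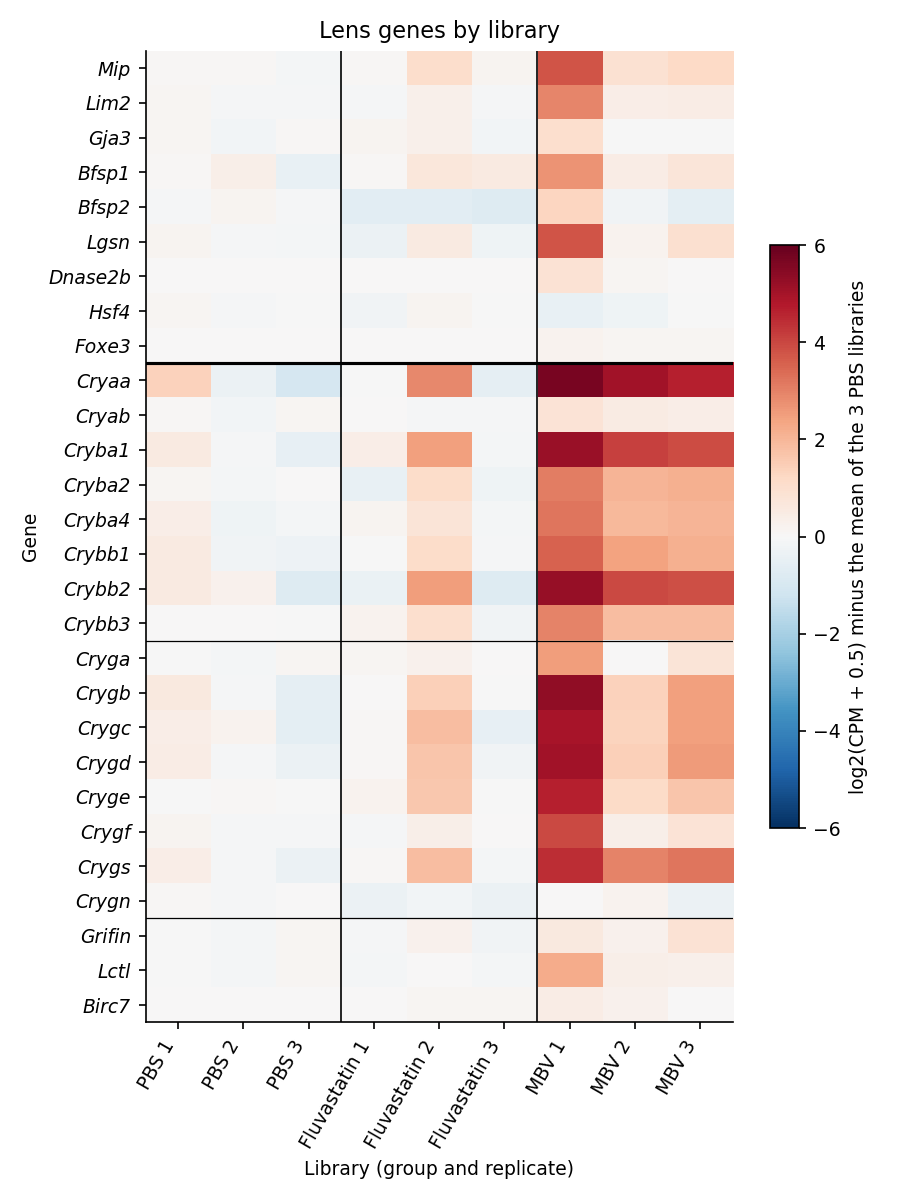
Difference of log2(CPM + 0.5) from the mean of the 3 PBS libraries for the 9 lens fibre genes (top block), 8 alpha and beta crystallins, 8 gamma crystallins and 3 further lens genes (rows), in the 9 libraries (columns). Mip, Lim2, Bfsp1 and Lgsn are red in MBV replicate 1 and pale in MBV replicates 2 and 3, whereas 7 of the 8 alpha and beta crystallins are red in all 3 MBV libraries. The added 0.5 CPM makes differences at low counts paler, as for Lim2 with 4 and 5 counts in MBV replicates 2 and 3.

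A further 13 genes of lens fibres were tested with MBV compared to PBS, and 3 were called higher, Lctl, Grifin and Epha2, and 0 lower. Without MBV replicate 1, edgeR called 0 of them, with 3 at an unadjusted p under 0.05, and DESeq2 on all 6 libraries called 2. Lctl had 54, 4 and 4 counts with MBV and 0 to 2 in the other libraries. The median log2 fold change of the 13 genes was 0.19. The list mixes genes well expressed in the PBS retina, such as Tdrd7 (344 to 361 CPM) and Cdh2 (197 to 208 CPM), with genes near the limit of detection. Among the latter, Birc7 had 0 counts in every PBS library and 5, 2 and 0 with MBV, and was not called. The median therefore does not describe genes specific to the lens. Of 10 transcription factors of the lens, among them Pax6, Prox1 and Maf, 0 were called with MBV in edgeR or DESeq2. In each, 2 were at an unadjusted p under 0.05, and the median was 0.03. Pax6 (269 to 290 CPM) and Prox1 (359 to 435 CPM) were well expressed in the PBS retina, so they are not specific to the lens here. Sox1 and Pitx3 had 0 counts in every PBS library. With MBV, Sox1 had 10, 0 and 2 counts and Pitx3 had 0, 2 and 1. Of 4 heat shock factor and heat shock protein genes 0 were called by either tool, with 2 at an unadjusted p under 0.05 and a median of 0.18. With fluvastatin compared to PBS, edgeR and DESeq2 called 0 of these 27 genes, with 7 at an unadjusted p under 0.05 in each, and 0 of the 16 crystallins, with 2 in edgeR and 1 in DESeq2. With MBV compared to fluvastatin, edgeR called 0 of the 27 genes, with 5 at an unadjusted p under 0.05, and 0 of the 16 crystallins, with 15. DESeq2 called 1 of the former, Lctl, and 3 of the latter, Cryba4, Crybb1 and Crybb3.

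The genes with a profile most like that of Mip over the 9 libraries were sought among 15321 genes with at least 10 counts in 3 libraries, by the mean absolute difference of log2(CPM + 0.5) after centring each gene. Outside the 9 genes, the nearest were Cryge (0.270), Crybb3 (0.349), Cryba4 (0.430), Cryba2 (0.461), Crygd (0.502), Crybb1 (0.509), Crygb (0.516) and Crygc (0.517), followed by Gp1bb (0.559) and Gm45861 (0.568). Of the 9 genes, Lgsn was the nearest of all with 0.234, Bfsp1 came at rank 4 with 0.356, Bfsp2 at rank 775 with 0.709 and Hsf4 at rank 11018 with 0.886. The other 4 genes had too few counts for this ranking.

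Markers of other cell types were summed in each library to show what moved with these genes. Of 13 lists, 1 placed MBV replicate 1 outside the range of the other 8 libraries, that of lens fibres, and it did so also with the genes described here left out (Cryaa, Crygs and Grifin, 68.6 CPM against 0.152 to 39.8). The 6 pigment cell markers summed to 93.2 to 143 CPM with PBS, 29.6 to 40.1 with fluvastatin and 23.7 to 40.7 with MBV. The 7 markers of ciliary and iris epithelium summed to 69.2 to 92.8 with PBS, 35.9 to 69.2 with fluvastatin and 32.2 to 58.0 CPM with MBV. The 5 lens epithelium markers summed to 158 to 186, 109 to 149 and 82.1 to 140 CPM. This sum rests on the 4 markers other than Foxe3, with 86.8 CPM in MBV replicate 1 and 86.7 CPM when Foxe3 was left out. Foxe3 itself was at 0 with PBS and fluvastatin and had 2, 1 and 1 counts with MBV, so the sum does not follow it. The sum was highest with PBS, where Foxe3 had no count, so it cannot be read as an amount of lens epithelium. The 5 Muller glia markers summed to 2630 to 3306 CPM with PBS, 1380 to 2621 with fluvastatin and 1195 to 2576 with MBV, and the 6 rod and cone markers to 37779 to 41017, 34063 to 36570 and 26316 to 37475 CPM. The 7 markers of pigment epithelium summed to 45.7 to 67.2 CPM with PBS, 68.0 to 135 with fluvastatin and 57.6 to 131 with MBV. The 6 markers of surface epithelium summed to 5.56 to 9.48, 2.80 to 6.57 and 2.28 to 3.55 CPM in the same order. For neutrophils, 6 markers summed to 1.40 to 1.86 CPM with PBS, 0.741 to 0.972 with fluvastatin and 1.10 to 2.87 with MBV. The 5 erythrocyte markers summed to 6.50 to 8.25 CPM with PBS and 13.3 to 17.2 in the other libraries, and MBV replicate 1 lay within that range. The 6 monocyte markers reached 17.9 CPM in MBV replicate 3 and 3.29 in MBV replicate 1, and lay between 0.785 and 2.47 elsewhere. The ganglion cell and endothelium markers overlapped between all groups. The part of these differences in the levels of the lens fibre genes was not tested.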

How the data were processed

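Total RNA of whole retinas was sequenced as paired-end reads after TruSeq Total RNA library preparation. The authors aligned the reads to GRCm39 in CLC Genomics Workbench and deposited 4 tables of raw counts per gene, without normalization, with their own fold changes and p-values, which were not used. Counts of 9 libraries were read from 3 tables, in which repeated columns were identical. The other table has 6 count columns without a library name, which were left out. The annotation and the strand setting of the counting are not given in the sources used here. Counts were compared for each pair of groups in edgeR 4.0.16 (R 4.3.3) with TMM, on genes counted at least once in the 6 libraries. The quasi-likelihood test and Benjamini-Hochberg adjustment over all genes were used, after a test on simulated data. The simulated data had the same spread for all genes and no outlying library. They therefore do not bear on calls that rest on a library such as MBV replicate 1. Genes were called at an FDR below 0.05 and a 2-fold difference or more. CPM (counts scaled to library size) use TMM over the 9 libraries. Exon lengths and overlaps are from GENCODE mouse release M39. The genes named are the 9 lens fibre genes, the called genes of lists set beside them with the largest change, and the 10 genes most like Mip. The genes and lists were chosen with earlier results of these data known. In these lists, 1 gene is not reported here. DESeq2 1.42.0 and other filters, scalings, fits and sets of replicates were tried, and 1 alternative, the lists without MBV replicate 1, was added after the values were seen. Same-numbered replicates did not deviate together (correlations of -0.36 to 0.154 over genes).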

Additional observations from a re-analysis of the deposited data

How the results depend on the processing

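The number of lens fibre genes called with fluvastatin compared to PBS, 1 as reported, was 0 in DESeq2 and 0 in a fit of all 9 libraries, and 0 to 1 when a replicate was left out. With MBV compared to PBS it was 4 as reported, 2 with a minimum of 10 counts in 2 libraries, where 5 genes were tested, and 0 to 5 when a replicate was left out. With the replicate number as a block it was 1, 3 and 0 in the 3 comparisons, and the log2 fold change of Lgsn with fluvastatin was -0.0026. Same-numbered samples share only a number. Of 290 log2 fold changes of single genes under an alternative, 258 kept both their sign and their side of the threshold, 22 lost the call and 1 gained it. The other 9 changed sign and were called in neither fit. The setting without a fold minimum repeats the main fit, and MBV compared to fluvastatin had no call of these genes to lose. Part of this stability was therefore fixed in advance. Leaving out a replicate, the log2 fold change with fluvastatin compared to PBS ranged from -2.57 to 3.59 for Lim2, from -0.86 to 0.44 for Lgsn and from -0.14 to 0.072 for Hsf4. With MBV compared to PBS it ranged from -0.37 to 2.63 for Gja3 and from -0.60 to 0.97 for Bfsp2, and compared to fluvastatin from -1.17 to 1.92 for Gja3. Apart from the smaller number of genes or samples, the cause of these changes was not tested. Over all genes, 220, 369 and 2 were called in the comparisons of fluvastatin with PBS, MBV with PBS and MBV with fluvastatin. Without a fold minimum these were 3687, 4937 and 11, and with a replicate left out they were 112 to 375, 196 to 575 and 0 to 33. In the last comparison 15 were called in DESeq2, 3 in the fit of 9 libraries, 0 with the 10-count minimum and 0 with the block. Outside MBV replicate 1, Lim2, Gja3, Dnase2b and Foxe3 had at most 5 counts in a library.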
